A study of Capra hircus with 11 samples.

Results

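The keratin-positive cells described here are the 751 barcodes of the day 0 goat ear fibroblast culture (group BFRTV0d) that held at least 10 summed UMIs of KRT5 and KRT14, the keratin pair of basal epithelial cells. A UMI is a molecular tag that counts 1 captured RNA molecule, and a barcode marks the RNA of 1 droplet, which usually holds 1 cell. They made up 7.04% of the 10670 barcodes of the day 0 table (exact 95% binomial interval 6.56 to 7.54), which is 1 of 5 tables with 41854 barcodes in all. They were set against the 9736 barcodes of the same table with 2 or fewer such UMIs, called keratin-low here, and 183 barcodes with 3 to 9 UMIs were left between the classes.

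The series profiled Capra hircus cells with droplet single-cell RNA sequencing (10x Single Cell 3′ kit V2) in 5 groups. BFRTV0d was ear fibroblasts in fibroblast medium before induction, and BFRTV4d and BFRTV8d were such cells after 4 and 8 days in BFRTV, an induction medium named only by its letters. CiMECs were day 8 cells passaged on in goat mammary epithelial cell medium, and GMECs were naturally derived mammary epithelial cells. The labels name 3 samples for BFRTV0d, 3 for BFRTV4d, 2 for BFRTV8d, 1 for CiMECs and 2 for GMECs, all grown on Matrigel-coated plates and freed with trypsin, and they give no animal, breed, sex or age. Each group was deposited as 1 pooled table whose cell names carry no sample. Every difference below therefore compares barcodes of pooled tables without a replicate, no test was possible, and intervals cover counting error only.

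Basal epithelial cells line the outer layer of skin and the ducts of glands. They carry keratin 5 and keratin 14 filaments, which are tied to the basement membrane by hemidesmosomes (integrin α6β4, collagen XVII and laminin-332) and to neighbouring cells by desmosomes. The transcription factor p63 maintains them. Fibroblasts lie below that membrane and make collagen I, III and VI. A skin biopsy holds both compartments, so epithelial cells can persist in a culture grown for fibroblasts.

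Barcodes were found at every keratin UMI count up to 20, but few lay near the limit of the rule. Of the day 0 barcodes, 6402 had no KRT5 or KRT14 UMI and 3334 had 1 or 2. A further 183 had 3 to 9, 73 had 10 to 19, 163 had 20 to 49, 214 had 50 to 99 and 301 had 100 or more, with a highest value of 1433. The median of the keratin-positive barcodes was 79 UMIs, and they held 95.7% of the 109096 KRT5 and KRT14 UMIs of the table.

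**Figure D1:**
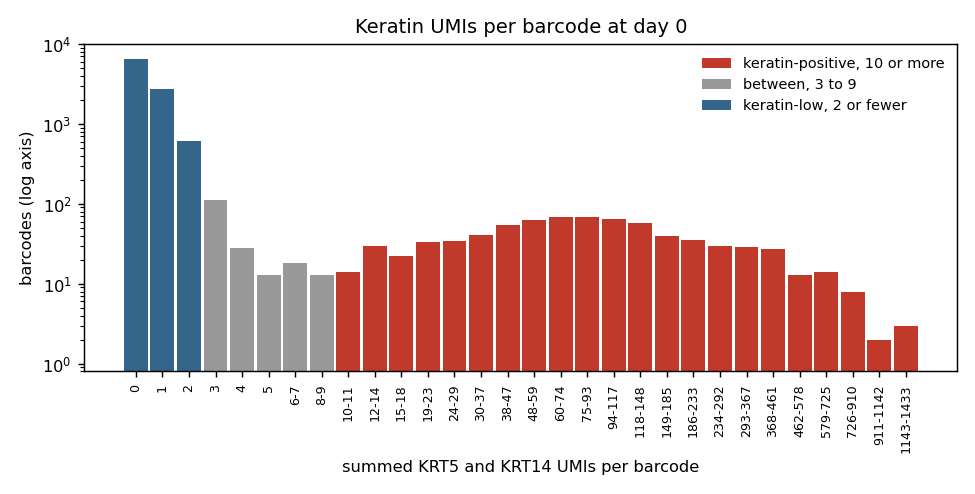
Number of day 0 barcodes (log axis) by summed KRT5 and KRT14 UMIs, in bins that widen to the right, with keratin-positive barcodes in red, barcodes between the classes in grey and keratin-low barcodes in blue. The bars drop to 13 barcodes at 8 to 9 UMIs and form a broad second mode, with 69 barcodes at 60 to 74 UMIs.

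Because these UMI counts chose the cells, the levels of the keratin pair are a description only. KRT14 stood at 4901 CPM (UMIs scaled to a total of 1000000 for the class) in keratin-positive barcodes, against 26.4 CPM in keratin-low barcodes, and KRT5 at 2184 against 12.9 CPM. KRT14 supplied a median of 67.4% of the pair's UMIs within a barcode (quartiles 57.7 and 80.7). It was detected in all 751 barcodes, whereas 58 had no KRT5 UMI, and 76 barcodes (10.1%) had more KRT5 than KRT14.

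The edge of the class was populated thinly and looked alike on either side. The 25 barcodes just inside it, with 10 to 12 UMIs, had a median of 14854 UMIs in all, and the 24 just outside it, with 7 to 9 UMIs, had 12163.5. Their median collagen level (COL1A1, COL1A2 and COL3A1 summed) was 402 and 421 CPM. Keratin-positive barcodes had a median of 17279 UMIs and 4122 genes, against 9867 UMIs and 3269 genes in keratin-low barcodes, and the median depth was 12706 UMIs at 10 to 19 keratin UMIs and 21197 at 100 or more. How far cell size, doublets or the rule set this depth was not tested.

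Barcode sequences recur between the tables. Of the keratin-positive barcodes, 34 (4.53%, 3.16 to 6.27) had a sequence that also occurs in another table, and so had 386 of the keratin-low barcodes (3.96%, 3.59 to 4.37). In 18 cases the recurring sequence was keratin-positive at day 4 or day 8 as well. Of all barcodes, 53.6% at day 4 and 94.9% at day 8 were keratin-positive. The like count for keratin-low barcodes was not made, so nothing is read from these 18. Scrublet, a doublet caller, marked 0.0562% of the day 0 barcodes and none of the keratin-positive ones, so the caller did not work on this table, and collagen was used below to single out barcodes that might hold RNA of both cell kinds.

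Collagen RNA was low in most keratin-positive barcodes, but only 8 of them had no UMI of COL1A1, COL1A2 or COL3A1. COL1A1, COL1A2 and COL3A1, the chains of collagens I and III, together took a median of 325 CPM (quartiles 220 and 540) in keratin-positive barcodes, against 7607 (quartiles 5447 and 10283) in keratin-low barcodes. Below 1000 CPM lay 619 keratin-positive barcodes (82.4%) and 20 keratin-low barcodes (0.205%). A further 76 keratin-positive barcodes lay between 1000 and 3804 CPM, where 3804 is 50% of the keratin-low median. The remaining 56 (7.46%) lay above it and are called high-collagen here. These 56 had a median of 18631 UMIs and 4705.5 genes, against 16981 UMIs and 4070 genes in the other 695 keratin-positive barcodes.

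**Figure D2:**
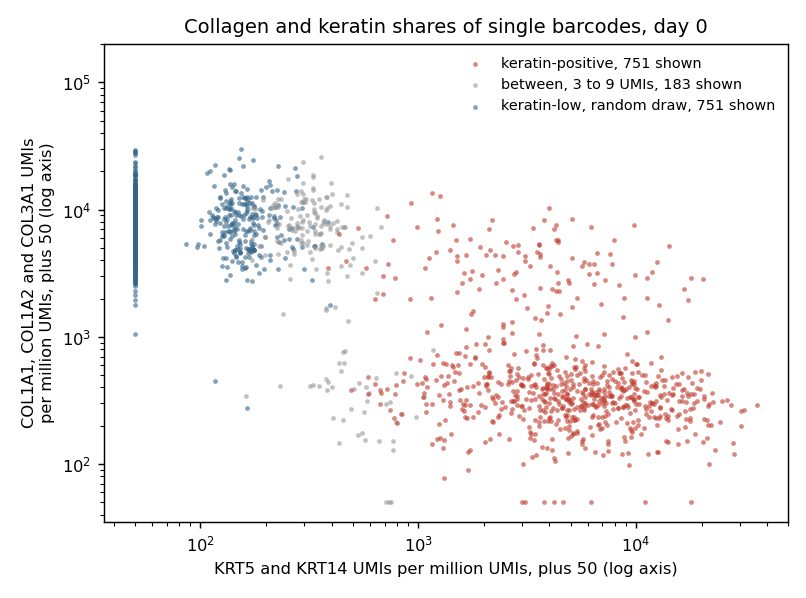
Each point is 1 day 0 barcode, placed by its share of KRT5 and KRT14 UMIs (x) and of COL1A1, COL1A2 and COL3A1 UMIs (y), each in CPM with 50 added so that zeros show on the log axes. All 751 keratin-positive barcodes (red), all 183 between (grey) and a random draw of 751 keratin-low barcodes (blue) are shown, and most red points lie far below the blue ones, with a thinner group of red points at the collagen level of the blue.

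The collagen that remained gives an upper limit on how much RNA of keratin-low cells the keratin-positive barcodes can hold, whether as free RNA in the droplets or as doublets. If such RNA makes up a given share, no gene should stand below that share of its keratin-low level. This assumes that the RNA has the gene proportions of the summed keratin-low barcodes, which was not tested for free RNA. Over 21 collagen and matrix genes with at least 200 CPM in keratin-low barcodes, the lowest ratio was that of LUM, the collagen-binding proteoglycan lumican, at 10.8% (10.2 to 11.4), with 85.2 CPM in keratin-positive against 793 CPM in keratin-low barcodes. COL1A1 stood at 11.4% (493 against 4329 CPM), COL3A1 at 11.95% (214 against 1793 CPM), COL1A2 at 12.1% (269 against 2218 CPM) and COL6A3, a collagen VI chain, at 12.1% (178 against 1468 CPM). The matrix genes thus limit RNA of the keratin-low kind to at most 10.8% of these barcodes on average. The lowest ratio over all 843 genes at that level was 8.27%, so the limit from the matrix genes is a generous one. Without the 56 high-collagen barcodes the limit was 6.26% (6.06 to 6.47), set by COL1A1. In the other direction, keratin-low barcodes held KRT8 at 0.626% of its keratin-positive level and PERP, a desmosome protein, at 0.672%.

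Several mesenchymal genes stood far above that limit. VIM, the intermediate filament protein vimentin, was at 5180 CPM in keratin-positive and 6302 CPM in keratin-low barcodes, a ratio of 82.2%. If foreign RNA had the gene proportions of keratin-low barcodes, at most 678 CPM of VIM could come from it. S100A4, a calcium-binding protein often used as a fibroblast marker, was at 6643 against 6514 CPM. FN1, the matrix protein fibronectin, was at 923 against 880 CPM, and TIMP3, an inhibitor of matrix metalloproteases, at 300.2 against 299.9 CPM. TAGLN, the actin-binding protein transgelin, was at 1872 against 1240 CPM. Their levels without the high-collagen barcodes were alike, at 5087 CPM for VIM, 6780 for S100A4, 904 for FN1, 300.1 for TIMP3 and 1923 for TAGLN.

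**Figure D3:**
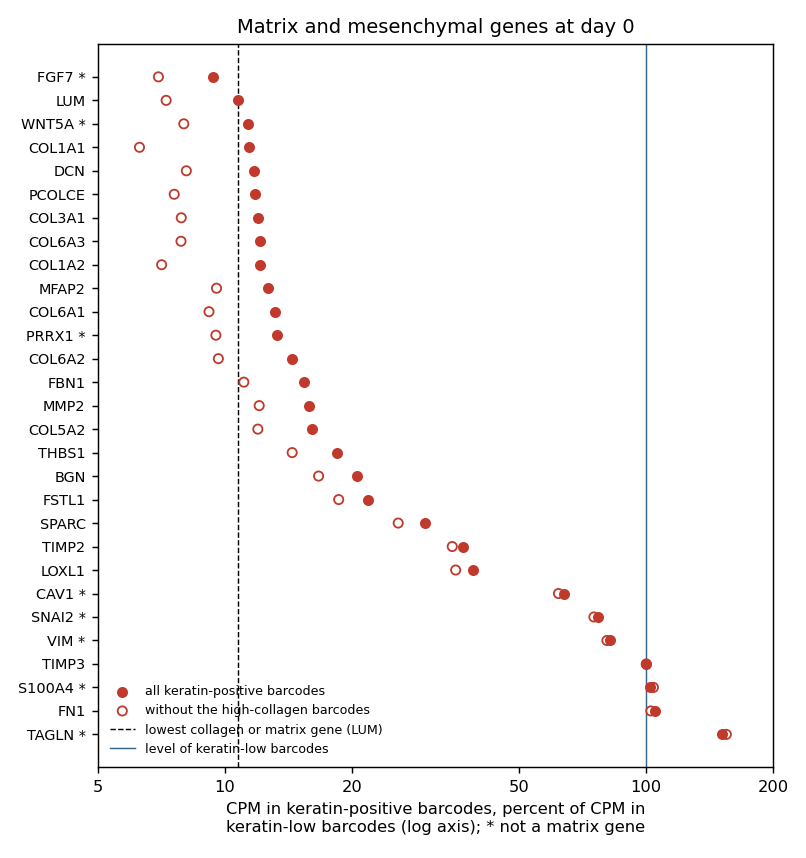
Level of 21 collagen and matrix genes and of 8 other mesenchymal genes (starred) in keratin-positive barcodes as a percentage of the keratin-low level (log axis), over all keratin-positive barcodes (filled) and without the high-collagen ones (open). The collagens lie near the dashed line at 10.8%, whereas VIM, TIMP3, S100A4, FN1 and TAGLN lie between 82.2% and 151%.

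Over all genes the classes differed widely, but every gene of these cells is tied to the rule through the cells it picked, so the counts are given for description and nothing is read from them. Among 8684 genes with at least 10 CPM in either class, 431 (4.96%) were at least 4-fold higher in keratin-positive barcodes and 365 (4.20%) at least 4-fold lower, and 10.2% and 13.5% were at least 2-fold higher and lower. The median log2 fold of all genes was −0.24, and TMM and median-of-ratios scaling shifted every fold up by 0.19 and 0.22. With these scalings 62.1% and 63.1% of the called genes were higher, against 54.1% here. A gene that reached 10 CPM in only 1 of the classes had to be higher there, so lists are counted below over the members that reached 10 CPM in both. Of all 7013 such genes, 5.06% were higher by 2-fold or more in keratin-positive barcodes and 9.13% lower by as much.

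Most epithelial genes that could be measured reached 10 CPM in keratin-positive barcodes alone. This held for 3 of 5 listed simple keratins, 6 of 18 epithelial transcription factors, 6 of 10 desmosome genes, 7 of 12 hemidesmosome and laminin genes and 14 of 23 adherens and tight junction genes, and the filter fixed their direction. The rest of these lists reached 10 CPM in both classes or in neither. Of all 8684 measured genes, 7013 reached 10 CPM in both classes. How the others split between the classes was not counted, so nothing is read from such counts. KRT8 and KRT18, the keratin pair of simple epithelia, stood at 3511 and 650 CPM in keratin-positive barcodes, against 22.0 and 4.74 CPM in keratin-low barcodes. KRT19 was at 459 against 3.72 CPM, KRT7 at 318 against 4.40 CPM and KRT6A, a keratin of wounded and appendage epithelium, at 720 against 4.94 CPM.

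Loci without a symbol lay near some of them. The RefSeq gene table places LOC102177275 near KRT9 and KRT14, with LOC102180424 between it and KRT14. LOC102177275 stood at 4217 against 28.1 CPM, 150-fold higher in keratin-positive barcodes (144 to 156). LOC102179515, between KRT36 and KRT19, was at 55.2 against 0.568 CPM. Type I keratin genes are close copies of each other, so reads may have been split between them, which could not be checked from the tables.

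Among the transcription factors, TP63, which encodes p63, was at 49.1 CPM in keratin-positive and 0.349 CPM in keratin-low barcodes. TFAP2A, which acts in surface ectoderm, was at 73.4 against 0.727 CPM, EHF, a regulator of epithelial differentiation, at 42.4 against 0.319 CPM, and ESRP1, an epithelial splicing regulator, at 33.9 against 0.448 CPM. KLF5 and SOX9 differed less, at 84.1 against 18.1 CPM and 112 against 44.9 CPM. Of the luminal list, GATA3, a factor of luminal mammary and of skin epithelium, was at 34.9 against 0.129 CPM, and TFAP2B at 123 against 0.448 CPM. CD24 was at 132 against 1.16 CPM and ALDH1A3 at 55.7 against 1.74 CPM, while XBP1 was at 123 against 157 CPM. Of 11 listed luminal genes 4 reached 10 CPM in keratin-positive barcodes alone, 1 in keratin-low barcodes alone and 1 in both. Of 3 genes of milk secretion that reached 10 CPM in both classes, MFGE8 was at least 2-fold lower, at 53.5 against 147 CPM, and SPP1 and PLIN2 were at 96.2 against 133 CPM and 18.3 against 18.0 CPM. The other 5 listed luminal genes were below 10 CPM in both classes.

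The anchoring genes differed widely in fold. Laminin-332, the basement membrane ligand of hemidesmosomes, had LAMB3 at 484 against 4.91 CPM and LAMA3 at 293 against 3.35 CPM. Its receptor chains ITGA6 and ITGB4 were at 331.9 against 6.93 CPM and 330.1 against 7.07 CPM, and COL17A1, the transmembrane collagen, at 418 against 3.82 CPM. PLEC, DST and CD151, which have roles outside epithelia, were at 260 against 440 CPM, 57.2 against 76.6 CPM and 485 against 310 CPM. Of the 5 genes of this list that reached 10 CPM in both classes 2 were at least 2-fold higher, ITGA3, an integrin chain, at 211 against 46.9 CPM and FERMT1, a kindlin, at 399 against 134 CPM.

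PERP, a desmosome protein, was at 710 CPM in keratin-positive against 4.77 CPM in keratin-low barcodes, DSC3 at 93.7 against 0.607 CPM, DSP, the desmosomal plakin, at 145 against 1.60 CPM and JUP, plakoglobin, at 242 against 5.91 CPM. Among adherens and tight junction genes EPCAM was at 180 against 1.41 CPM, CDH1, E-cadherin, at 85.6 against 0.906 CPM and CDH3, P-cadherin, at 43.5 against 0.508 CPM. Of the 3 that reached 10 CPM in both classes 2 were at least 2-fold higher, and the other was TJP1, a scaffold also used by fibroblast contacts, at 27.0 against 22.5 CPM. Connexins, the subunits of gap junctions, were among the largest folds, with GJB2 at 1012 against 6.01 CPM and GJB6 at 73.4 against 0.249 CPM, which is 295-fold (199 to 457). GJB5 was at 85.1 against 0.528 CPM, and CKMT1A, a mitochondrial creatine kinase, at 57.7 against 0.408 CPM.

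After each barcode was thinned to 3000 UMIs, so that depth no longer differed, at least 1 KRT8 UMI was found in 96.4% of keratin-positive and 5.74% of keratin-low barcodes (99.7% and 18.0% unthinned). For SFN, the epithelial 14-3-3 protein, the shares were 97.2% and 4.74% (99.9% and 15.5% unthinned). They were 81.9% and 1.38% for PERP (98.9% and 4.29% unthinned) and 67.2% and 1.32% for LAMB3 (96.4% and 4.53% unthinned). EPCAM was found in 32.1% and 0.472% (73.0% and 1.15% unthinned), and TP63 in 14.9% and 0.0719% (47.1% and 0.349% unthinned). At least 2 desmosome UMIs were found in 82.3% of keratin-positive barcodes (79.4 to 85.0) and 0.164% of keratin-low barcodes (0.0940 to 0.267), against 99.2% and 0.965% unthinned, and at least 2 fibrillar collagen UMIs in 42.3% (38.8 to 46.0) and 99.9% (99.82 to 99.96), against 97.2% and 99.98% unthinned. The keratin-low shares serve as the background for these genes. In the 183 barcodes between the classes, at least 2 desmosome UMIs were found in 20.8% (15.1 to 27.4). At least 2 fibrillar collagen UMIs were found in 81.4% (75.02 to 86.8). Both shares lay between those of the classes, but these barcodes were a mixture. Unthinned, 125 of them (68.3%) had collagen of at least 3804 CPM and a median of 0 CPM for KRT8, SFN and PERP summed. Another 43 (23.5%) had collagen below 1000 CPM and a median of 3164 CPM for that sum. The last 15 lay between these collagen levels, with a median of 212 CPM.

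Differentiation and wound genes were mixed. Of 14 wound-response genes that reached 10 CPM in both classes 7 were at least 2-fold higher and 3 lower in keratin-positive barcodes, and of 3 such keratinocyte differentiation genes 1 was higher. SFN was at 2412 against 18.3 CPM, KLK10, a kallikrein protease, at 277 against 2.39 CPM, LYPD3 at 109 against 0.787 CPM and CSTA, a cornified envelope component, at 38.4 against 0.378 CPM. KRT10, the keratin of suprabasal skin, did not stand out, at 129 against 126 CPM, and LY6D was lower, at 1207 against 1920 CPM. LOR, loricrin, had 1.22 against 13.4 CPM. S100A2, a calcium-binding protein of basal keratinocytes, reached 19208 against 903 CPM, and S100A8 and S100A9, which are induced in wounded skin, were at 231 against 2.39 CPM and 189 against 1.36 CPM. TNC, the matrix protein tenascin-C, was lower, at 60.6 against 157 CPM. LGALS7, a galectin of stratified epithelium, was at 809 against 5.31 CPM, with its neighbour LOC102180339 at 656 against 3.97 CPM.

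Several ligands and receptors lay on opposite sides. Of 6 growth factors and receptors outside the EGF receptor family that reached 10 CPM in both classes 1 was at least 2-fold higher and 4 were lower, and of 7 such Notch and WNT genes 1 was higher and 3 were lower. In the EGF receptor family 2 genes reached 10 CPM in both classes, EGFR and ERBB2. AREG and HBEGF, ligands of the EGF receptor, were at 156 against 0.767 CPM and 95.5 against 7.37 CPM. TGFA, another ligand, was at 112 against 9.997 CPM, just short of 10 CPM in keratin-low barcodes. EGFR itself was at 25.5 against 19.8 CPM and ERBB2 at 16.9 against 12.4 CPM. FGF7 and HGF, growth factors that stromal cells secrete for epithelia, were at 59.7 against 638 CPM and 1.49 against 14.9 CPM, and MET, the HGF receptor, at 42.8 against 14.7 CPM. PDGFB was at 11.7 against 0.169 CPM and its receptors PDGFRA and PDGFRB at 7.46 against 50.5 CPM and 3.19 against 28.9 CPM. JAG2, a Notch ligand, was at 30.2 against 0.428 CPM, and WNT5A, a non-canonical WNT ligand, at 114 against 1003 CPM.

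Most other mesenchymal genes were lower. All 5 fibrillar collagens and 18 of 21 matrix genes that reached 10 CPM in both classes were at least 2-fold lower in keratin-positive barcodes. MFAP5, a microfibril protein, was higher, at 55.0 against 4.94 CPM. Of 10 such surface and cytoskeleton genes 7 were at least 2-fold lower, among them NES, nestin, at 20.1 against 163 CPM, and of 8 such mesenchymal transcription factors 5 were. PRRX1, a factor of limb and skin mesenchyme, was at 137 against 1030 CPM, and ZEB2 at 8.35 against 87.0 CPM. SNAI2, which basal epithelial cells also use, was at 132 against 172 CPM. At the matrix-gene limit of 10.8%, RNA of the keratin-low kind would supply 108 of 114 CPM of WNT5A and 111 of 137 CPM of PRRX1. For FGF7 it would supply 68.6 CPM, more than the 59.7 CPM measured. FGF7 stood at 9.37% of its keratin-low level, and the lowest ratio over all 843 genes was 8.27%. Under the same assumption the share must therefore be below 10.8%, and less WNT5A and PRRX1 could be supplied. How much of these levels is foreign RNA was not tested.

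The genes with the lowest folds among those of at least 50 CPM, beside FGF7, ZEB2 and LUM, included JAM2, a junction protein of endothelium and fibroblasts, at 4.28 CPM in keratin-positive against 51.7 CPM in keratin-low barcodes, 12.1 times lower. MEOX2, a mesodermal homeobox factor, was at 4.75 against 53.4 CPM, PRRX2 at 12.01 against 114 CPM, VCAN, the proteoglycan versican, at 23.1 against 217 CPM and CLEC3B, tetranectin, at 22.0 against 208 CPM. GNG11, CD8B, PCP4L1, MEDAG, MAB21L2, AKAP12 and CHODL were between 9.59 and 11.2 times lower.

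Contractile genes were split as well, with 1 of 8 that reached 10 CPM in both classes at least 2-fold higher and 1 lower. MYL9 was at 317 CPM in keratin-positive and 115 CPM in keratin-low barcodes, and ACTG2 at 20.2 against 6.79 CPM, while ACTA2, smooth muscle actin, was at 99.1 against 218 CPM and CNN1, calponin, at 6.65 against 30.3 CPM.

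Cell cycle genes differed by phase. Of 16 S phase genes that reached 10 CPM in both classes none was 2-fold higher and 5 were 2-fold lower in keratin-positive barcodes, among them UHRF1 at 25.9 against 76.5 CPM and MCM4, a helicase subunit, at 44.2 against 102 CPM. Of 19 G2 and mitosis genes 4 were at least 2-fold higher, CCNB1, cyclin B1 (77.9 against 24.7 CPM), UBE2C (209 against 70.2 CPM), CCNB2 (28.2 against 11.1 CPM) and PLK1 (29.7 against 12.6 CPM). MKI67, the proliferation marker Ki-67, was at 45.2 against 43.7 CPM. At 3000 UMIs, at least 2 G2 and mitosis UMIs were found in 42.9% of keratin-positive barcodes (39.3 to 46.5) and 31.2% of keratin-low barcodes (30.3 to 32.1), against 76.0% and 59.0% unthinned. At least 2 S phase UMIs were found in 51.7% (48.0 to 55.3) and 68.7% (67.8 to 69.7), against 95.6% and 93.4% unthinned.

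Of the genes that reached 10 CPM in both classes, 3 of 6 for cell cycle arrest and 4 of 14 for early response and heat shock were at least 2-fold higher. CDKN1A, the cell cycle inhibitor p21, was at 507 against 137 CPM and GADD45A at 174 against 55.2 CPM. ATF3 was at 106 against 6.96 CPM and GADD45B at 105 against 15.6 CPM, but a small sub-cluster described below carried most of these UMIs. SLC2A1, the glucose transporter GLUT1, was at 727 against 163 CPM and GPI, a glycolytic enzyme, at 450 against 120 CPM, and 4 of 11 measured glycolysis genes were at least 2-fold higher. Of 4 interferon-response genes that reached 10 CPM in both classes 1 was at least 2-fold higher, IFI6 at 247 against 76.7 CPM. None of 9 such cholesterol synthesis genes was 2-fold apart, and of 9 oxidative phosphorylation genes 1 was 2-fold higher, ATP5B at 461 against 173 CPM.

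Markers of other cells were mostly low. Summed levels were 6.85 against 5.92 CPM for the 2 listed of 8 melanocyte markers, 77.9 against 148 CPM for 3 of 9 endothelial markers, almost all EGFL7, 15.2 against 39.0 CPM for 7 of 11 immune markers and 10.2 against 11.1 CPM for 4 of 9 chondrocyte markers. Schwann cell markers summed to 74.9 against 79.5 CPM, mainly S100B, pericyte markers to 82.9 against 152 CPM and adipocyte markers to 7.87 against 18.3 CPM. PECAM1 and VWF, which define endothelium, were at 0.407 against 2.13 CPM and 0.475 against 1.17 CPM. STMN2, a microtubule regulator best known from neurons, was at 457 against 3.63 CPM, while CHGA and SNAP25 of the same Merkel and neuronal list were at 1.83 against 0.289 CPM and 2.31 against 11.1 CPM. FST, follistatin, was at 590 against 19.9 CPM and made up nearly all of the hair follicle sum of 601 against 42.4 CPM. Sebaceous and sweat gland markers summed to 260 against 127 CPM, mainly ATP1B1 at 209 against 70.6 CPM.

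The keratin-positive barcodes were not uniform. Clustering them alone gave 7 sub-clusters at a resolution of 0.5, 6 at 0.3 and 9 at 1, and as the clusters were cut from the same genes their levels are a description. Sub-cluster 4, with 117 barcodes, held 54 of the 56 high-collagen barcodes, had a median collagen level of 3561 CPM and was led by GREM1 and COL1A1, with COL1A1 at 2141 CPM. In the other 6 sub-clusters COL1A1 stood between 123 and 236 CPM. Whether sub-cluster 4 holds doublets, free RNA or cells with both programs was not tested.

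Among sub-clusters 1, 2, 3 and 5 the main contrast ran between KRT18, KRT19 and KRT7 on one side and VIM, STMN2 and CXCL14 on the other. Sub-cluster 1 (165 barcodes, led by LOC100861279, GJB6 and CLCA2) and sub-cluster 5 (128 barcodes) had KRT18 at 155 and 176 CPM, VIM at 7479 and 6579 CPM and STMN2 at 947 and 737 CPM. Sub-cluster 2 (88 barcodes, led by VGLL1 and PRSS22) and sub-cluster 3 (136 barcodes) had KRT18 at 932 and 1037 CPM, VIM at 897 and 1987 CPM and STMN2 at 0.664 and 12.3 CPM. EPCAM and CDH1 went with KRT18, at 376 and 181 CPM in sub-cluster 2 and 340 and 191 CPM in sub-cluster 3, against 54.8 and 48.5 CPM in sub-cluster 1. Among these 4 sub-clusters TP63 was higher where KRT18 was low, at 82.2 CPM in sub-cluster 1 and 68.0 CPM in sub-cluster 5, against 31.2 CPM in sub-cluster 2 and 31.9 CPM in sub-cluster 3. The TP63 pattern did not extend to sub-cluster 6, which had KRT18 at 373 CPM and VIM at 9448 CPM. Its TP63 was the lowest of all 7, at 20.5 CPM. In sub-clusters 4 and 7 TP63 was at 45.7 and 30.8 CPM. Sub-cluster 7 was mixed. It had the highest KRT18, at 1962 CPM, with EPCAM at 330 CPM and VIM at 2678 CPM. Its CDH1 was at only 65.9 CPM, and STMN2 and CXCL14 were at 310 and 275 CPM.

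Sub-cluster 3 was led by LOC102183026, DMKN, dermokine of the upper epidermis (53.6 CPM, against 0.325 CPM in the other keratin-positive barcodes), and CNFN, cornifelin (76.9 against 7.73 CPM), and had CST6, a cystatin of the skin barrier, at 1698 CPM. The leading genes of sub-cluster 5 were those of dividing cells, with TOP2A at 153 CPM against 35.6 CPM in the other keratin-positive barcodes. The summed G2 and mitosis genes reached 2158 CPM in sub-cluster 5 and 2398 CPM in sub-cluster 2, against 208 CPM in sub-cluster 1 and 153 CPM in sub-cluster 6. High levels of these genes thus occurred on both sides of the KRT18 and VIM contrast.

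Sub-cluster 6, with 75 barcodes, had KRT14 at 4334 CPM but KRT5 at only 222 CPM, with VIM at 9448 CPM, FN1 at 2453 CPM and MFAP5 at 281 CPM, and FABP3, CH25H and MSLN, mesothelin, among its leading genes. Sub-cluster 7 had 42 barcodes of high depth, with a median of 35909.5 UMIs, and was led by HSPA6, ARC, RND1 and ATF3. ATF3 stood there at 803 CPM, against 17.7 CPM in the other keratin-positive barcodes, and GADD45B at 747 against 23.8 CPM. CDKN1A was at 1965 CPM in sub-cluster 7 and between 101 and 460 CPM in the other 6.

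**Figure D4:**
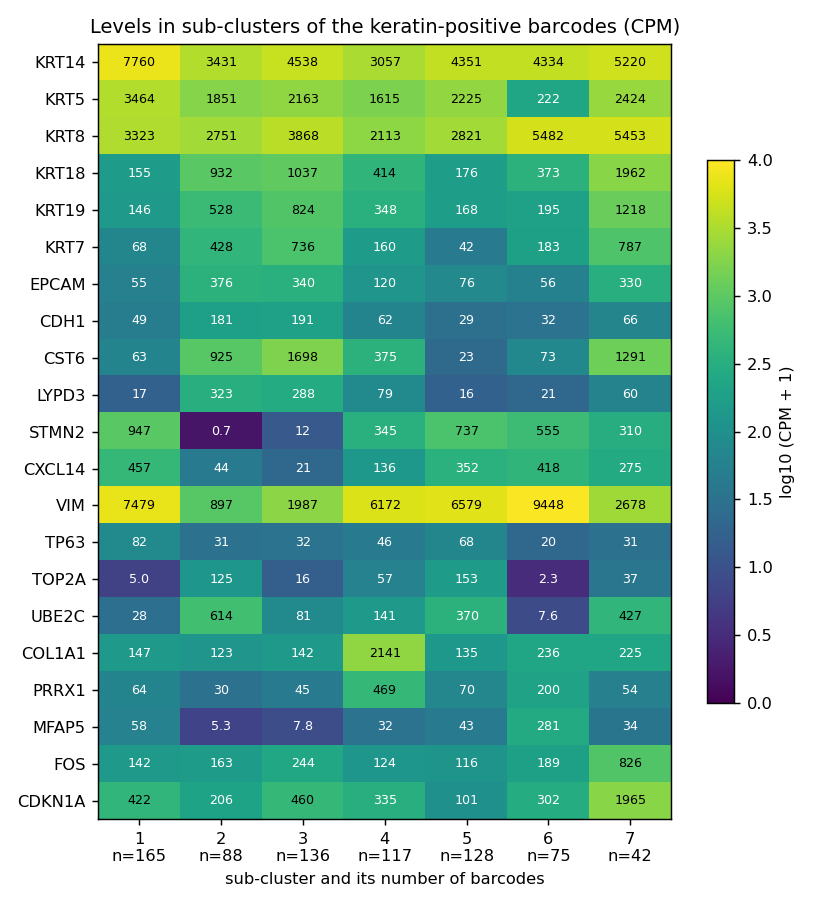
CPM of 21 genes in the 7 sub-clusters of the keratin-positive barcodes, printed in each cell and coloured by log10 (CPM + 1), with the number of barcodes under each sub-cluster. Sub-clusters 2 and 3 combine high KRT18, EPCAM and CST6 with low VIM and STMN2, sub-cluster 4 carries COL1A1, and sub-cluster 6 has the lowest KRT5.

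The contrast can also be described across single barcodes. These values come from the same counts that gave the sub-clusters, for chosen gene pairs, so they are no separate support. Over the 695 keratin-positive barcodes without high collagen, the Spearman correlation of UMI shares was 0.57 between KRT18 and KRT7 and 0.49 between KRT18 and KRT19, 0.60 between STMN2 and VIM and 0.61 between STMN2 and CXCL14, a chemokine, and −0.42 between KRT18 and STMN2 and −0.35 between KRT18 and VIM. VIM had a correlation of 0.08 with COL1A1 and 0.01 with FN1, and KRT8 one of 0.06 with KRT5. The points share 1 pooled table and differ in depth, so these are descriptions of these barcodes. VIM was spread more widely in them than in keratin-low barcodes, with a median of 4466 CPM and 5th and 95th percentiles of 379 and 12414, against a median of 5670 and percentiles of 3227 and 11068.

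The same rule applied to the later tables took in 5472 barcodes (53.6%) of BFRTV4d, 9637 (94.9%) of BFRTV8d, 2425 (46.7%) of CiMECs and 2060 (36.5%) of GMECs. Levels of the day 0 keratin-positive barcodes were set against those of day 4 and day 8, over the 14054 genes that all 3 tables list. The 3 groups are 1 table each, so day and library cannot be told apart. Against day 8, 472 of 8781 genes (5.38%) were at least 4-fold higher at day 0 and 586 (6.67%) at least 4-fold lower. Against day 4 it was 231 of 8672 (2.66%) and 333 (3.84%). Of the 6735 genes that reached 10 CPM on both day 0 and day 8, over which lists are counted here, 14.2% were at least 2-fold higher and 11.4% lower at day 0, and of 6994 on both day 0 and day 4 it was 10.4% and 7.54%. Because the rule picked barcodes by the keratin pair at each day, KRT5 and KRT14 are left out. Genes that reached 10 CPM on 1 day alone were not counted over all genes, so nothing is read from such counts below.

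The keratin set differed by day. KRT8 was at 3511, 1056 and 352 CPM in keratin-positive barcodes of days 0, 4 and 8, KRT18 at 650, 172 and 115 CPM, KRT19 at 459, 2198 and 3430 CPM and KRT7 at 318, 896 and 1028 CPM. The pair of simple epithelia thus stood highest at day 0, and its companions KRT19 and KRT7 at day 8. LAMB3 was at 484, 69.7 and 58.7 CPM and SFN at 2412, 295 and 353 CPM. Of 12 hemidesmosome and laminin genes 7 were at least 2-fold higher at day 0 than at day 8 and none 2-fold lower, and all 12 reached 10 CPM on both days.

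Several transcription factors of epithelia were lower at day 0. Of 8 that reached 10 CPM on both day 0 and day 8, 4 were at least 2-fold lower at day 0 and none was 2-fold higher, and 6 more reached 10 CPM on day 8 alone. TP63 was at 49.1, 106 and 139 CPM on days 0, 4 and 8, EHF at 42.4, 214 and 504 CPM and SOX9 at 112, 216 and 440.2 CPM. Of the luminal list, GATA3 was at 34.9, 85.9 and 229.8 CPM and TFAP2B, in the other direction, at 123, 46.4 and 45.2 CPM. SNAI1, a repressor of E-cadherin, was at 26.9, 4.73 and 1.82 CPM, while CDH1 was at 85.6, 43.1 and 60.8 CPM and EPCAM at 180, 115 and 164 CPM. CLDN1, a claudin of tight junctions, was at 41.2, 78.7 and 189 CPM. None of the 5 desmosome genes that reached 10 CPM on both days was 2-fold apart between day 0 and day 8.

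Cell cycle genes were higher at day 0 than at day 8. Of 10 G2 and mitosis genes that reached 10 CPM on both days 8 were at least 2-fold higher at day 0, and of 6 such S phase genes 3 were. A further 9 and 10 reached 10 CPM on day 0 alone. MCM2 was at 31.4, 28.5 and 2.55 CPM on days 0, 4 and 8, CCNB1 at 77.9, 51.3 and 11.1 CPM and UBE2C at 209, 129 and 43.6 CPM. Against day 4, 4 of 19 G2 and mitosis genes that reached 10 CPM on both days were at least 2-fold lower and none higher at day 0, and none of 15 S phase genes was 2-fold apart. Among the lower ones was TOP2A, at 52.9 CPM on day 0 and 116 CPM on day 4.

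Many mesenchymal genes were higher at day 0 than at day 8. VIM was at 5180, 2579 and 1023 CPM on days 0, 4 and 8, TAGLN at 1872, 401 and 144 CPM, FN1 at 923, 318 and 276 CPM and S100A4 at 6643, 1668 and 2481 CPM. Of 12 matrix genes that reached 10 CPM on both day 0 and day 8, 9 were at least 2-fold higher at day 0, and of 21 on both day 0 and day 4, 10 were higher and 2 lower. Other genes ran differently, with SNAI2 at 132, 112 and 218 CPM on days 0, 4 and 8, PRRX1 at 137, 201 and 40.02 CPM, ACTA2 at 99.1, 582 and 255 CPM and MYLK at 10.9, 273 and 157 CPM. Of 10 contractile genes on both day 0 and day 4, 2 were at least 2-fold higher and 4 lower at day 0. COL1A1 was at 493, 150 and 16.3 CPM on those days, with 271 CPM at day 0 without the high-collagen barcodes, while the keratin-low barcodes of the same tables, 9736, 3250 and 68 in number, had 4329, 1048 and 577 CPM, so the keratin-low level was lower on the later days too, and the part of free collagen RNA in this difference was not tested. The keratin-low level of FN1 was 880, 1401 and 2290 CPM on days 0, 4 and 8, of TAGLN 1240, 1292 and 549 CPM and of VIM 6302, 6480 and 5281 CPM.

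Several interferon-response genes were lower at day 0 than at day 8. Of 5 that reached 10 CPM on both days 4 were at least 2-fold lower at day 0, and 6 more reached 10 CPM on day 8 alone. IFI6 was at 247, 219 and 6763 CPM on days 0, 4 and 8, ISG15 at 16.02, 1.92 and 371 CPM and MX1 at 26.5, 15.3 and 257 CPM. In the 68 keratin-low barcodes of day 8 IFI6 was at 6385 CPM, ISG15 at 312 CPM and MX1 at 260.4 CPM, so keratin-low barcodes of that table had like levels. Among single genes lower at day 0 than at day 8, SPP1, osteopontin, was at 96.2, 2401 and 17909 CPM, and PLIN2, a lipid droplet coat protein, at 18.3, 447 and 649 CPM. PLAC8 was at 1.76, 46.7 and 459 CPM and NPPC, a natriuretic peptide, at 1.22, 19.3 and 255 CPM. MUC13, ADAMTS19, IFI44, TPD52L1 and MX2 were below 1 CPM at day 0 and at 74.2, 49.9, 52.8, 58.3 and 124 CPM at day 8.

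Some genes were far higher on day 0 than on day 8. C1QL2, a secreted C1q-like protein, was at 336 CPM on day 0 and at 1.45 and 0.357 CPM on days 4 and 8, 938-fold higher than on day 8 (673 to 1348), with 1.80 CPM in day 0 keratin-low barcodes. EDN2, an endothelin, was at 116, 0.810 and 0.357 CPM and NPPB, another natriuretic peptide, at 89.5, 0.926 and 1.14 CPM, with 54.6 CPM in CiMECs and 94.6 CPM in GMECs, whose tables also list ribosomal genes. LYPD3 was at 109, 1.92 and 3.16 CPM, SULT2B1, a cholesterol sulfotransferase, at 231, 9.78 and 4.49 CPM, with 1032 CPM in CiMECs and 395 CPM in GMECs, and STMN2 at 457, 259 and 52.7 CPM. ARC was at 60.7, 0.331 and 0.683 CPM, and its day 0 level came mostly from sub-cluster 7, with 516 CPM there and 3.06 CPM in the other keratin-positive barcodes. IL11 and COL6A2 were at 132 and 152 CPM on day 0 and 2.30 and 2.71 CPM on day 8, and both were higher in day 0 keratin-low barcodes, at 902 and 1054 CPM. EMP3 was at 633, 52.1 and 11.4 CPM, with 483 CPM in CiMECs, 65.1 CPM in GMECs and 1012 CPM in day 0 keratin-low barcodes.

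**Figure D5:**
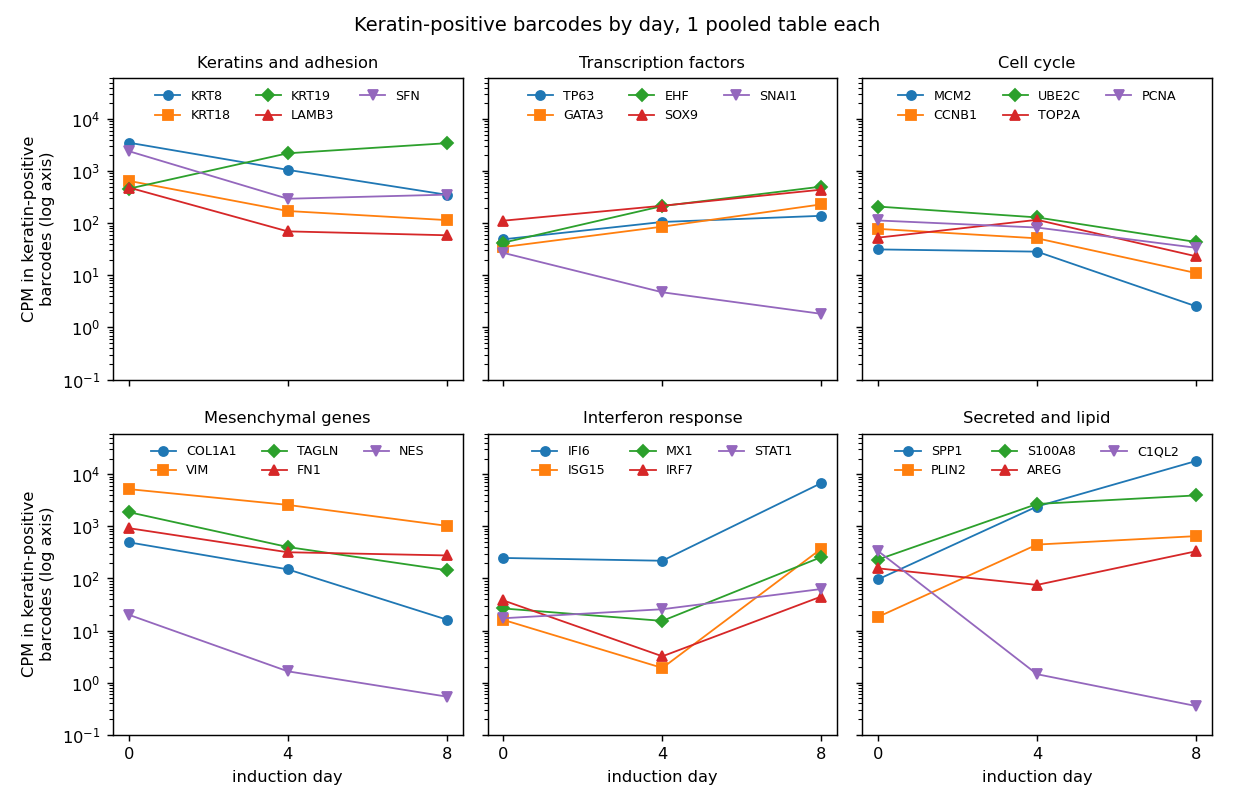
CPM (log axis) of 30 genes in keratin-positive barcodes on induction days 0, 4 and 8, with 1 pooled table a day and no replicate, so no error bars. KRT8, KRT18, the cell cycle genes and the mesenchymal genes lie lower on day 8 than on day 0, while KRT19, GATA3, EHF, SOX9, SPP1 and PLIN2 lie higher.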

How the data were processed

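Goat cells of 5 groups were profiled with the 10x Single Cell 3′ kit V2. Tools named by the submitters' notes were Cell Ranger, with no version given, and FastQC 0.10.1, while the genome build was not given in the sources used here. The deposited files hold raw UMI counts per gene and barcode, 1 table per group, and the authors' tables list only genes found in a minimum number of cells. The keratin-positive class, the gene lists and the comparisons were chosen with earlier results of these data known.

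UMIs were summed over the barcodes of a class and scaled to CPM. Genes with at least 10 CPM in either class were measured, folds of at least 4 were called (2 for lists, over members with 10 CPM in both classes), and a class with 0 UMIs was set to a floor of 3 counts. Intervals are exact 95% binomial intervals. Shares of barcodes were compared after thinning to 3000 UMIs. Named genes were the 15 highest and 15 lowest folds of at least 50 CPM with a symbol (8 each against day 8), members of the gene lists, and defining markers of other cell types. Genes marking single sub-clusters, and loci without a symbol, were chosen after their values were seen. Neighbours of such loci come from the RefSeq table of assembly ARS1.2. No doublets were removed. Scripts were tested on simulated data and ran in Python 3.11.15 with numpy 2.4.6, scipy 1.17.1, pandas 2.3.3 and scanpy 1.11.5, and in R 4.3.3 with edgeR 4.0.16 for TMM scaling factors alone. With 1 pooled table a group, no count model was fitted. Total UMIs per table were 117500853, 106750380, 103337253, 97203521 and 111001606 for BFRTV0d, BFRTV4d, BFRTV8d, CiMECs and GMECs. Some members of the gene lists are counted in the list totals but not reported here by name.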

Additional observations from a re-analysis of the deposited data

Results flagged for a closer look

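For 9 genes the keratin-positive over keratin-low fold lay on opposite sides of 1 at day 0 and day 4, by at least 2-fold each way. All 9 are members of the gene lists. The like count over all measured genes is not given, so nothing is read from their number or kind. These differences were not tested, since each day is 1 pooled table.

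Of the S phase genes, UHRF1 had a fold of 0.339 at day 0 (25.9 against 76.5 CPM) and 15.4 at day 4 (33.2 against 2.16 CPM). MCM2 had 0.464 and 12.8, MCM3 0.462 and 8.83, MCM4 0.435 and 8.26, and CLSPN 0.479 and 7.33 at days 0 and 4. The keratin-positive levels of MCM2 were 31.4 CPM at day 0 and 28.5 CPM at day 4, and the keratin-low levels 67.7 and 2.23 CPM.

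Of the contractile genes, ACTG2 had a fold of 2.97 at day 0 (20.2 against 6.79 CPM) and 0.172 at day 4 (20.1 against 116 CPM). MYL9 had 2.77 and 0.482, and MYLK 2.26 and 0.458 at days 0 and 4. PDGFA, a growth factor for mesenchymal cells, had 0.320 at day 0 (23.5 against 73.5 CPM) and 2.11 at day 4 (38.4 against 18.2 CPM).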

How the results depend on the processing

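No paired analysis was possible because cell names carry no sample, and no replicate could be left out for the same reason. At a minimum of 20 keratin UMIs the share of day 0 barcodes was 6.35% and the limit on RNA of the keratin-low kind 9.96%. That limit was 9.84% with at least 1 keratin UMI per 1000 UMIs, and 6.26% without the high-collagen barcodes. At a minimum of 50 CPM, 164 genes were at least 4-fold higher and 148 lower in keratin-positive barcodes, and with no minimum 1068 and 857. Against day 8 it was 202 and 244 at 50 CPM. Leaving out the high-collagen barcodes, a choice made after seeing the data, gave 443 and 595. The share with at least 2 G2 and mitosis UMIs was 35.02% in keratin-positive and 22.9% in keratin-low barcodes at 1900 UMIs, and 49.5% and 42.1% at 5000 UMIs, and at 3000 UMIs 60.6% and 53.8% had at least 1. The median log2 fold of simple keratins over day 8 turned from −1.40 to 0.40 at 50 CPM, where fewer genes are measured. Over 267 folds of genes and lists, 2324 alternative values lay within the interval of the main value (for lists, its standard error), and 653 outside. A reversal was counted only where the main fold was at least 2 in either direction, and 1 value reversed. Smaller folds could change direction without being counted as reversed.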

Other observations

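Keratin levels of the day 0 keratin-positive barcodes also differed from those of the cultures made or taken later. KRT8 stood at 3511 CPM at day 0, against 7056 CPM in CiMECs and 10369 CPM in GMECs, and KRT18 at 650 CPM at day 0, against 5306 CPM in CiMECs and 8935 CPM in GMECs. VIM was at 5180 CPM at day 0, against 667 CPM in CiMECs and 812 CPM in GMECs, and TAGLN at 1872 CPM at day 0, against 2528 CPM in CiMECs and 59.6 CPM in GMECs. All are levels in keratin-positive barcodes. The tables of CiMECs and GMECs list 74 ribosomal genes, which hold 25.6% and 34.98% of their UMIs and which the day 0 table does not list, so these levels are not on the same base.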
